A study of Mus musculus with 3 samples.

Results

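The genes described here handle lipid in macrophages and osteoclasts, and comprise Abca1, Abcg1, Apoe, Lpl, Fabp4, Fabp5, Pparg, Plin2, Nr1h3 and Scd2. They were found in the deposited mRNA table by the GENCODE M21 symbol of each listed transcript, and the reads of all transcripts of a gene were summed. This gave 9 of the 10 genes, out of 16073 genes in the table. No transcript of Pparg was found by this rule, and no reads of Pparg were analysed here. The data are RNA-seq of apoptotic bodies (ABs), the membrane-bound vesicles shed by dying cells, from 3 cultures of C57BL/6 mouse bone marrow at an age of 11 weeks. All 3 cultures began as bone marrow macrophages grown with M-CSF at 50 ng/ml, for 72 h by the labels and 48 h by the methods. BMM-ABs came from these macrophages, pOC-ABs from preosteoclasts given RANKL at 100 ng/ml for 24 h, and mOC-ABs from mature osteoclasts given RANKL at 100 ng/ml for at least 72 h by the labels and 96 h by the methods. M-CSF accompanied RANKL, at 30 ng/ml by the labels and 50 ng/ml by the methods. Apoptosis was induced in all 3 cultures, with alendronate at 500 µM for 12 h according to the labels and with staurosporine at 0.5 µM for 3 h according to the methods, and the sample titles name the cells rather than their ABs. Each condition is 1 library, so no difference can be set against a spread between replicates. The intervals below are exact 95% intervals (Clopper-Pearson for ratios and shares) that cover counting error only.

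Macrophages take up lipoproteins and dead cells and must store or export the cholesterol they contain. Liver X receptor α (LXRα, encoded by Nr1h3) senses oxysterols and, with its partner RXR, drives the export genes Abca1, Abcg1 and Apoe as well as Lpl and the desaturases. Fatty acids from lipoprotein lipase are carried in the cytosol by the FABPs and are stored in lipid droplets coated by Plin2. Osteoclasts form by fusion of the same macrophages, and cholesterol export and fatty acid use are known to bear on their formation and survival.

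The mRNA table held 9100082 reads for the macrophage ABs, 7387317 for the preosteoclast ABs and 7705592 for the mature osteoclast ABs. Levels are given as RPM, the reads of a gene per 1000000 reads of this table. Where 3 values follow a gene without further labels, they stand for BMM-ABs first, pOC-ABs second and mOC-ABs last. Most macrophage and osteoclast markers went the way the labels call for, but not all did. The 7 macrophage markers with at least 20 reads came to a summed level of 5799, 2777 and 1799 RPM together with the 2 sparser ones of the list, and 2 of them were more than 2-fold lower in pOC-ABs and 6 in mOC-ABs than in BMM-ABs. The osteoclast markers summed to 579, 892 and 2706 RPM, with 4 of 10 more than 2-fold higher in pOC-ABs and 9 of 10 in mOC-ABs than in BMM-ABs, although the integrin gene Itgb3 held only 6, 3 and 0 reads and Calcr was not analysed here. Of the macrophage markers, Lyz2 alone gave 3170, 1334 and 411 RPM, and Cd68 was nearly level at 729, 649 and 656 RPM. The 2 sparser ones were Mertk, with 0, 2 and 5 reads, and Mrc1, with 10, 2 and 1 reads. The osteoclast marker Tnfrsf11a stood at 72.2, 52.3 and 78.3 RPM. None of 7 adipocyte markers and none of 8 neutrophil markers was found in the table. Of 6 endothelial markers 3 were found, and these summed to 4.29, 3.52 and 6.36 RPM. The markers found for osteoblast and stroma (3 of 8), B cells (3 of 5), T cells (1 of 5) and erythroid cells (1 of 6) each summed to less than 2 RPM. In bulk RNA of this kind, fewer ABs of one cell type and less RNA per AB cannot be told apart, which applies to every ratio below. The part of these marker levels in the ratios was not tested.

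Together the lipid genes took up 0.247%, 0.140% and 0.185% of all reads in the table. Scd2 and Lpl made up 79.8%, 65.8% and 78.3% of these. Levels of different genes can be compared only per length, for which the FPKM of all transcripts of a gene as deposited were added. On this scale Scd2, a stearoyl-CoA desaturase, ranked first in BMM-ABs (229.6 FPKM), followed by Lpl (179.3), Plin2 (86.9), Fabp5 (85.3), Abcg1 (55.1), Apoe (8.03), Nr1h3 (5.21), Abca1 (4.79) and Fabp4 (1.82). The neighbours Plin2 and Fabp5, Apoe and Nr1h3, and Nr1h3 and Abca1 had overlapping counting intervals there. In pOC-ABs the order changed at both ends. Fabp5 came first (174.9 FPKM) before Scd2 (108.8), Plin2 (104.6) and Lpl (81.5), and Abca1 came last (1.70), after Abcg1 (27.6), Apoe (5.68), Nr1h3 (4.90) and Fabp4 (3.81). Scd2 overlapped Plin2 in this library, Apoe overlapped Nr1h3, and Nr1h3 overlapped Fabp4. In mOC-ABs Scd2 (175.9 FPKM) and Lpl (120.0) again led Fabp5 (107.5), Plin2 (61.9), Abcg1 (46.6), Apoe (15.1), Nr1h3 (3.84), Fabp4 (1.19) and Abca1 (0.873), and only Fabp4 and Abca1 overlapped. The deposited FPKM of the main Abcg1 transcript fits a length of 3610 bases and not the 5832 of GENCODE M21, so that its FPKM depends on the annotation used.

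**Figure D1:**
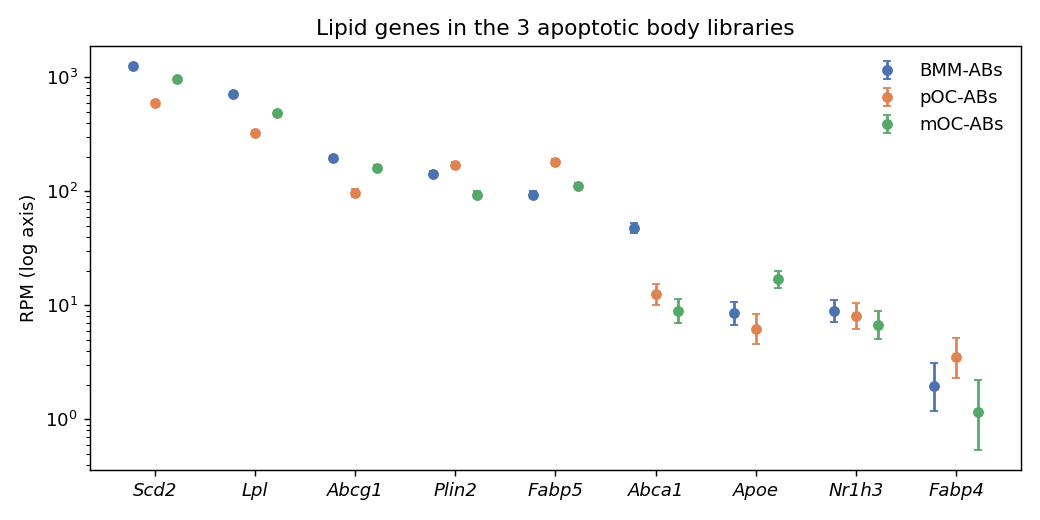
RPM of the mRNA table (log axis) for the 9 lipid genes in the 3 libraries, with exact 95% Poisson intervals of the reads as bars. Scd2, Lpl and Abcg1 are lowest in pOC-ABs, Fabp5 is highest there, and Abca1 is low in both osteoclast AB libraries.

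Of the export genes, Abca1 differed most. Its product moves cholesterol and phospholipid out of the cell onto lipid-poor apolipoproteins. The gene (ENSMUSG00000015243) lies on chromosome 4, 53030787 to 53159895, minus strand (GRCm38). It counted 435 BMM-AB reads, 92 pOC-AB reads and 69 mOC-AB reads, or 47.8, 12.5 and 8.95 RPM. BMM-ABs thus stood apart from both osteoclast AB libraries. The level was 3.84-fold lower in pOC-ABs than in BMM-ABs (95% interval 3.06 to 4.86) and 5.34-fold lower in mOC-ABs (4.13 to 6.99). Among the 10863 genes with at least 100 reads, 51 had a lower ratio than Abca1 between pOC-ABs and BMM-ABs and 79 between mOC-ABs and BMM-ABs. Between mOC-ABs and pOC-ABs the log2 ratio was -0.48 (-0.95 to -0.0099). Nearly all reads lay on ENSMUST00000030010, with 434, 89 and 69 reads. The other listed transcript, the short noncoding ENSMUST00000149127, had 1, 3 and 0 reads, and because it is short it weighs on the sum of FPKM, which put the log2 ratio of pOC-ABs to BMM-ABs at -1.50 in place of -1.94.

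The 250 bases before the start of Abca1, from RefSeq on GRCm38.p6 (chr4:53159896-53160145, minus strand), are shown because this gene had the largest ratio and is the best known target of LXR. Capitals mark a CACGTG (an E-box), whose first base is at -147 from the start, and, at -67, the imperfect direct repeat TGACCNNNNNTAACC, of the kind bound by LXR with RXR.
Abca1 upstream: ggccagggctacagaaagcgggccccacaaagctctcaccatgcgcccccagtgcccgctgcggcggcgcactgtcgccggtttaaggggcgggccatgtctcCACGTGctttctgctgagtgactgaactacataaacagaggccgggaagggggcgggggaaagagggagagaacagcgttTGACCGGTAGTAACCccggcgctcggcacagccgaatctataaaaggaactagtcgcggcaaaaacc
Of 32851 RefSeq windows of 300 bases (250 before to 50 after a start), 7.15% held CACGTG and 0.0487% held the direct repeat on either strand. Windows were matched for 5 of the 10 genes (Abca1, Apoe, Nr1h3, Plin2 and Pparg). The CACGTG was found in 1 other of them, Plin2, at -4. The direct repeat was found in Abca1 alone of the 5. This pattern has the letters of the Abca1 site and is not the idealised LXR repeat. Nothing is therefore read from its match in Abca1 or from its share of all windows. Neither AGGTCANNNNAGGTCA (0.0152% of all windows) nor AGGTCANAGGTCA (0.0396%), the idealised repeats for LXR and PPAR, nor the sterol element TCACCCCAC (0.551%) was found in these 5 genes. A match describes the letters and is no measure of binding.

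Abcg1, which exports cholesterol to mature high-density lipoprotein, followed another course. The gene (ENSMUSG00000024030, chromosome 17, 31057675 to 31117988, plus strand) counted 1767, 712 and 1245 reads, or 194.2, 96.4 and 161.6 RPM. It was low in pOC-ABs and near its BMM-AB level in mOC-ABs. The level in pOC-ABs was 2.01-fold below that in BMM-ABs (1.85 to 2.20), an interval that spans the 2-fold limit. mOC-ABs were 1.20-fold lower than BMM-ABs (1.12 to 1.29) and 1.68-fold higher than pOC-ABs (1.53 to 1.84). ENSMUST00000024829 held 98.9%, 98.6% and 98.2% of the Abcg1 reads in the 3 libraries.

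Apoe encodes apolipoprotein E, the secreted acceptor that carries exported cholesterol. It lies on chromosome 7, 19696109 to 19699188, minus strand (ENSMUSG00000002985), and was sparse, with 78 BMM-AB, 46 pOC-AB and 131 mOC-AB reads (8.57, 6.23 and 17.0 RPM). mOC-ABs held the most. The level in mOC-ABs was 2.73-fold that in pOC-ABs (1.94 to 3.91) and 1.98-fold that in BMM-ABs (1.49 to 2.66), while pOC-ABs and BMM-ABs differed by a log2 ratio of -0.46 whose interval (-1.02 to 0.083) includes 0. The main transcript ENSMUST00000173739 carried 58, 36 and 105 of these reads. The 3 export genes therefore had 3 different orders of the libraries, with BMM-ABs and pOC-ABs within counting error of each other for Apoe.

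Nr1h3, the gene of LXRα itself (ENSMUSG00000002108, chromosome 2, 91184061 to 91202834, minus strand), counted 81, 60 and 52 reads, or 8.90, 8.12 and 6.75 RPM. These levels were not distinguishable at this depth. The log2 ratio was -0.13 (-0.64 to 0.37) between pOC-ABs and BMM-ABs, -0.40 (-0.93 to 0.12) between mOC-ABs and BMM-ABs and -0.27 (-0.83 to 0.29) between mOC-ABs and pOC-ABs. The intervals do not show equal levels, since a difference of 1.5-fold lies within each of them.

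The reads of Nr1h3 were spread over 7 transcripts, and their shares differed between libraries. ENSMUST00000111354 had 28, 23 and 18 reads, a share between 34.6% and 38.3% in each library. ENSMUST00000002177 had 32 reads in BMM-ABs (39.5%, interval 28.8 to 51.0), 3 in pOC-ABs (5.00%, 1.04 to 13.9) and 10 in mOC-ABs (19.2%, 9.63 to 32.5). ENSMUST00000111356 went the other way, with 2 reads in BMM-ABs (2.47%, 0.300 to 8.64), 20 in pOC-ABs (33.3%, 21.7 to 46.7) and 14 in mOC-ABs (26.9%, 15.6 to 41.0). The 3 transcripts have the same 9 coding blocks, of 1335 bases without the stop codon. They differ at their 5′ ends, where the first exon lies at 91195033 to 91195151 in ENSMUST00000111354, 91194965 to 91195116 in ENSMUST00000002177 and 91194731 to 91195035 in ENSMUST00000111356. At the 3′ end ENSMUST00000111354 stops at 91184092 and the other two at 91184061. The first exons overlap in part, and transcript counts divide reads that fit several transcripts, so that with 81 reads or fewer the shares rest on few reads that tell the transcripts apart.

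Lpl encodes lipoprotein lipase, which frees fatty acids from the triglyceride of lipoproteins. The gene (ENSMUSG00000015568, chromosome 8, 68880491 to 68907448, plus strand) counted 6530, 2419 and 3742 reads, or 717.6, 327.5 and 485.6 RPM. pOC-ABs were 2.19-fold lower than BMM-ABs (2.09 to 2.30), and mOC-ABs lay between them, 1.48-fold lower than BMM-ABs (1.42 to 1.54) and 1.48-fold higher than pOC-ABs (1.41 to 1.56). ENSMUST00000015712 held 94.1%, 93.7% and 95.7% of the reads, and a pair of retained-intron transcripts held 5.64%, 6.12% and 4.20%.

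The fatty acid binding proteins Fabp4 and Fabp5, which carry fatty acids in the cytosol, both lie on chromosome 3. Fabp5 (ENSMUSG00000027533, 10012548 to 10016607, plus strand) counted 849 BMM-AB, 1332 pOC-AB and 860 mOC-AB reads, or 93.3, 180.3 and 111.6 RPM. It was thus highest in pOC-ABs, 1.93-fold above BMM-ABs (1.77 to 2.11), and mOC-ABs were 1.62-fold lower than pOC-ABs (1.48 to 1.76) and 1.20-fold higher than BMM-ABs (1.09 to 1.32). Fabp4 (ENSMUSG00000062515, 10204088 to 10208576, minus strand), the form typical of adipocytes, had only 18, 26 and 9 reads (1.98, 3.52 and 1.17 RPM). Its level also was highest in pOC-ABs. mOC-ABs were 3.01-fold below pOC-ABs (1.37 to 7.31), and the intervals of the other 2 comparisons include equality. The coding sequences of Fabp4 and Fabp5 are 60.6% identical, with 12 bases as the longest run in common, and no window of 31 bases occurs in both.

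Plin2 coats lipid droplets and is a common marker of stored neutral lipid in macrophages. The gene (ENSMUSG00000028494, chromosome 4, 86648386 to 86670060, minus strand) counted 1302, 1263 and 720 reads, or 143.1, 171.0 and 93.4 RPM. mOC-ABs were the lowest. They were 1.53-fold lower than BMM-ABs (1.40 to 1.68) and 1.83-fold lower than pOC-ABs (1.67 to 2.01), and pOC-ABs were 1.19-fold higher than BMM-ABs (1.11 to 1.29). The main transcript ENSMUST00000000466 carried 1162, 1128 and 599 reads. A shorter coding transcript, ENSMUST00000149700 (730 bases), had 57, 53 and 82 reads, so that its share was 4.38% (3.33 to 5.64) in BMM-ABs, 4.20% (3.16 to 5.45) in pOC-ABs and 11.4% (9.16 to 13.9) in mOC-ABs.

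**Figure D2:**
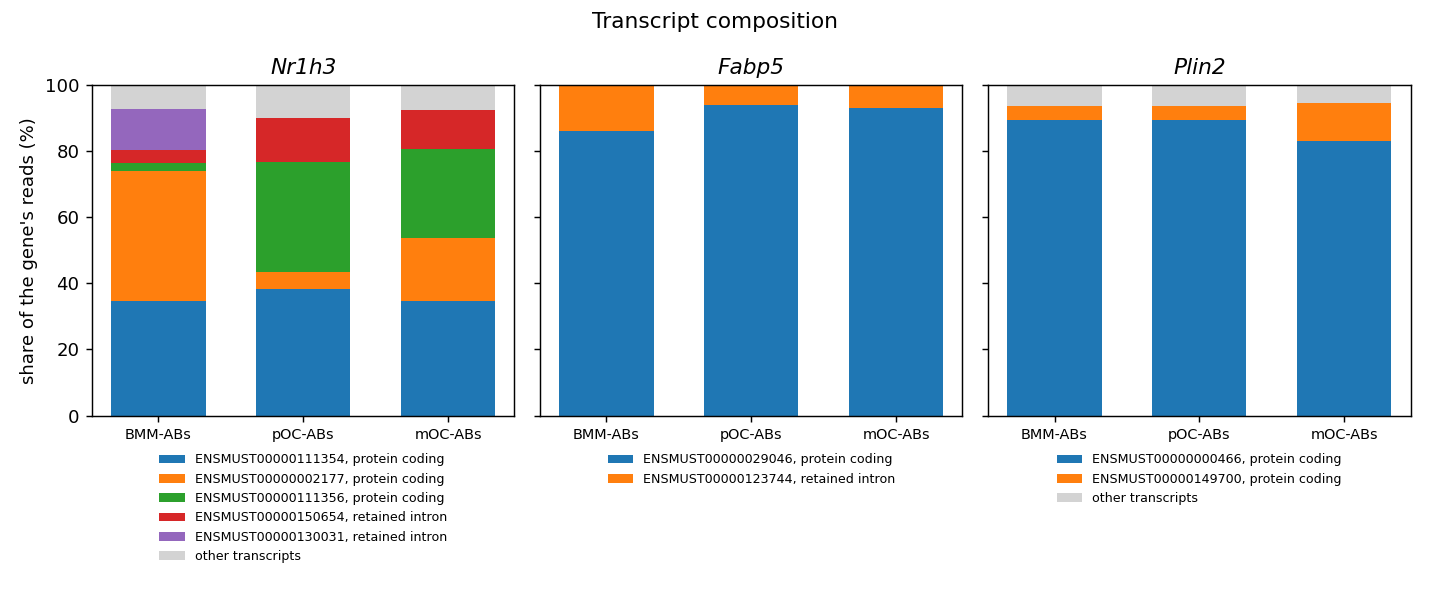
Share of the reads of Nr1h3, Fabp5 and Plin2 held by each transcript with at least 10% in any library, in percent, in each of the 3 libraries. Grey bars join the remaining transcripts. The Nr1h3 transcript ENSMUST00000002177 is large in BMM-ABs and ENSMUST00000111356 in the osteoclast AB libraries, on 81 reads or fewer per library.

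Fabp5 also differed in its transcripts. The retained-intron transcript ENSMUST00000123744 had 119, 82 and 61 reads, or 14.0% (11.8 to 16.5) of the Fabp5 reads in BMM-ABs, 6.16% (4.93 to 7.58) in pOC-ABs and 7.09% (5.47 to 9.02) in mOC-ABs. Over the whole table, retained-intron transcripts held 5.22%, 4.21% and 3.84% of the reads. The coding transcript ENSMUST00000029046 alone had 730, 1250 and 799 reads. For Fabp4 the main transcript ENSMUST00000029041 had 14, 25 and 8 reads and the retained-intron transcript 4, 1 and 1, too few to compare. Of the 33 listed transcripts of the lipid genes, 18 were protein coding, 9 retained introns and 6 processed transcripts, and 7 had fewer than 10 reads.

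Scd2 introduces a double bond into stearoyl-CoA and was the gene with the most reads. It lies on chromosome 19, 44293674 to 44306864, plus strand (ENSMUSG00000025203), and 1 transcript was listed, ENSMUST00000026221, with 11395 BMM-AB, 4381 pOC-AB and 7390 mOC-AB reads (1252, 593.0 and 959.0 RPM). pOC-ABs were 2.11-fold lower than BMM-ABs (2.04 to 2.19) and mOC-ABs 1.31-fold lower (1.27 to 1.34), while mOC-ABs were 1.62-fold higher than pOC-ABs (1.56 to 1.68). The split of reads between Scd2 and its neighbour Scd1 is uncertain where their coding sequences match. These are 90.3% identical, and 252 of 1044 windows of 31 bases in the coding sequence of Scd2 occur also in that of Scd1. The coding sequence takes up 1074 of the 5455 bases of the Scd2 transcript. The remaining bases were not compared, so the share of all Scd2 reads that fit both genes is not known. The longest run in common, 147 bases, is shown because reads within it fit both genes. It spans coding exons 4 and 5 of Scd2 (chromosome 19, 44299702 to 44299814 and 44301212 to 44301245, plus strand) and of Scd1 (44401693 to 44401805 and 44400341 to 44400374, minus strand), GRCm38.
Scd1 and Scd2 shared run: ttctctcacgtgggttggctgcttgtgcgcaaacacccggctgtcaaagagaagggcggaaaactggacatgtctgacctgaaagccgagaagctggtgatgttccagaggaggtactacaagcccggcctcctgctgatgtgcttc
Added together, Scd1 and Scd2 counted 13845, 5411 and 8977 reads, and the log2 ratio was -1.05 (-1.10 to -1.01) between pOC-ABs and BMM-ABs, -0.39 (-0.42 to -0.35) between mOC-ABs and BMM-ABs and 0.67 (0.62 to 0.72) between mOC-ABs and pOC-ABs. The sum thus had ratios close to those of Scd2 alone.

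Counted against a 2-fold limit in pOC-ABs vs BMM-ABs (G1), 4 of the 9 genes were lower (Abca1, Lpl, Scd2 and Abcg1) and 0 higher, where 11.2% of the 12821 genes with at least 20 reads were past it, 6.22% lower and 4.97% higher. This split depended on the setting, with 3 lower and 1 higher (Fabp5) when scaled to protein-coding transcripts, and 3 lower and 2 higher (Fabp4 and Fabp5) on summed FPKM. For Abca1, Lpl and Scd2 the whole interval lay past the limit, as it did in the lower direction for 2.08% of all genes. In mOC-ABs vs BMM-ABs (G2), Abca1 alone was past the limit, and lower, beside 13.4% of all genes past it, 9.14% lower and 4.29% higher. Its whole interval lay past the limit, as in 3.88% of all genes. In mOC-ABs vs pOC-ABs (G3), Apoe was higher and Fabp4 lower, beside 10.7% of all genes past the limit, 3.64% higher and 7.02% lower, and neither interval lay wholly past it, where 3.49% of all genes did so. Intervals that leave out equality were found for 6, 7 and 8 of the 9 genes in G1, G2 and G3, and for 56.3%, 55.5% and 49.1% of all genes. The median log2 ratio of the 9 genes was -0.46, -0.40 and -0.27, beside -0.021, -0.054 and -0.049 over all genes. The 3 comparisons share libraries, so that a low value in pOC-ABs enters both G1 and G3.

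**Figure D3:**
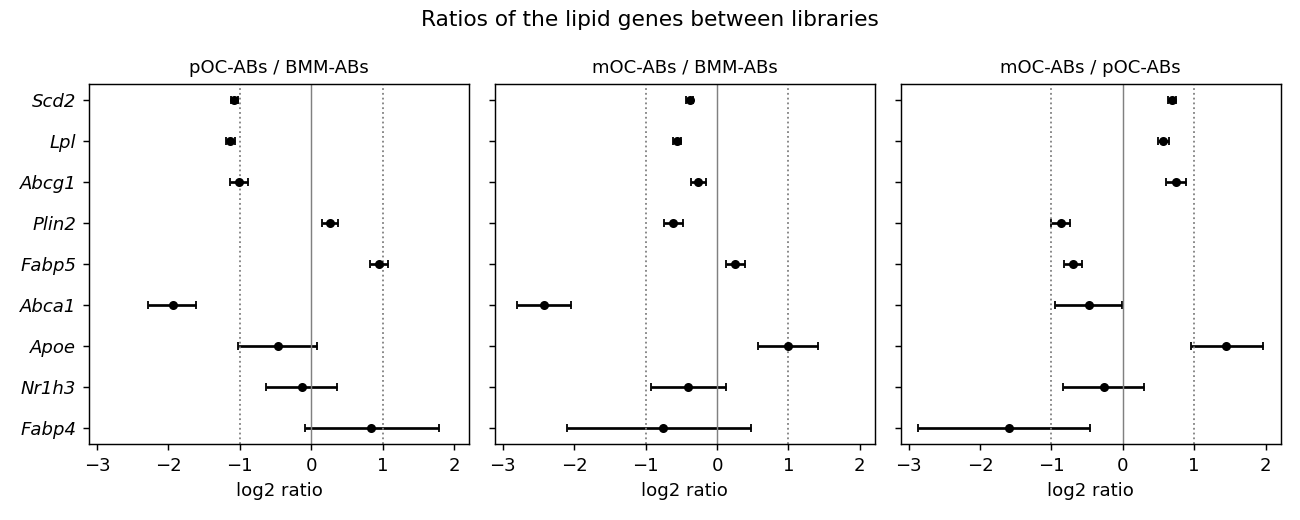
Log2 ratios of the 9 lipid genes in G1, G2 and G3, from RPM, with exact 95% intervals (bars), a solid line at equality and dotted lines at 2-fold. Abca1, Lpl and Scd2 lie wholly past the lower line in G1, only Abca1 does in G2, and none does in G3.

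The ratios moved with the length and the base composition of transcripts over the whole table, most in G1. Both values are given here beside the lipid genes. Among protein-coding genes the median log2 ratio of pOC-ABs to BMM-ABs went from 0.28 in the tenth with the shortest main transcripts to -0.21 in the tenth with the longest, and from 0.30 at the lowest GC content to -0.21 at the highest. The lipid genes spanned this range. Fabp4 (896 bases) and Fabp5 (987), the shortest, had the highest ratios in G1, and Abcg1 (3610), Lpl (4115), Scd2 (5453) and Abca1 (10262) the 4 lowest. When the median of genes of like length and GC content (5 by 5 classes) was subtracted, the log2 ratio in G1 was -1.79 for Abca1, -1.34 for Lpl, -0.75 for Scd2, -0.66 for Abcg1 and 0.60 for Fabp5, so that 2 of the 9 genes, Abca1 and Lpl, were past 2-fold. After the same subtraction, 872 of 10999 protein-coding genes were past 2-fold in G1, 518 of them lower. The class of Abcg1 joined the 3610 bases implied by its deposited FPKM with the GC content (52.7%) of the 5832-base GENCODE M21 transcript. Its adjusted values depend on that choice. With length alone subtracted, Lpl stood at -0.996, just short of the limit. In its class of 562 genes, Abca1 had 6 with a lower ratio, and Lpl had 12 below it among 534. In G2 the adjusted log2 ratio of Abca1 was -2.26. From lowest to highest GC content, the median of protein-coding genes went from -0.35 to 0.068 in G3 and from -0.046 to -0.15 in G2. From shortest to longest it went from -0.16 to 0.0014 in G3 and from 0.14 to -0.18 in G2. In G3 the subtraction took Fabp4 (40.3% GC) from -1.59 to -1.18 and Apoe from 1.45 to 1.47, both still past 2-fold. Fabp4 had 9 genes with a lower G3 ratio in its class of 234. The part of length and base composition in these ratios beyond this subtraction was not tested.

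**Figure D4:**
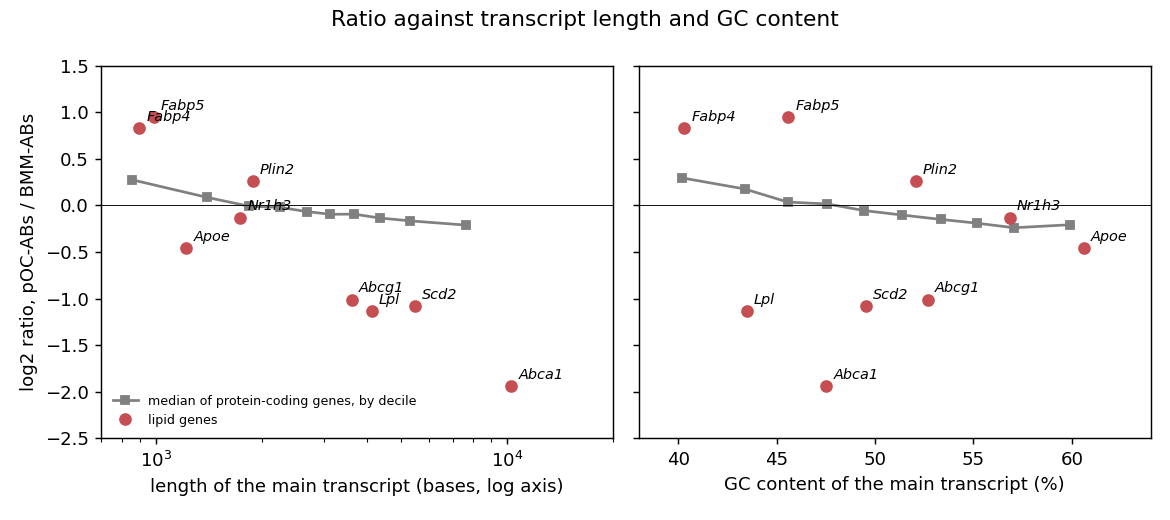
Log2 ratio of pOC-ABs to BMM-ABs against the length (bases, log axis) and the GC content (%) of the main transcript, for the 9 lipid genes (red) and as the median of protein-coding genes by decile (grey, at the median length or GC content of the decile). The grey line ends lower than it starts in both panels, and Abca1 lies below it in both.

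The other genes of lipid handling were taken from 5 lists of 98 genes, of which 79 were found and 75 had at least 20 reads. In G1, 61 of the 75 had a ratio below equality, beside 51.5% of all and 53.5% of protein-coding genes, and 9 were more than 2-fold lower and 1 higher. In G2, 57 were below equality, beside 54.6% of all and 57.9% of protein-coding genes, with 10 more than 2-fold lower and 2 higher. With length and GC medians subtracted, 6 were lower and 1 higher in G1, beside 518 and 354 of 10999 protein-coding genes. In G2, 6 were then lower and 2 higher, beside 835 and 419. In G3, 6 were lower and 2 higher past 2-fold, and 4 lower and 4 higher when scaled to the mRNA and lncRNA tables together. Of all genes, 6.22% were lower and 4.97% higher past 2-fold in G1. For G2 the all-gene shares were 9.14% lower and 4.29% higher, and G3 had 7.02% lower and 3.64% higher. The single lists below hold 14 to 17 tested genes, in which such shares come to about 1 gene in a direction, and nothing is read from their counts. Over all 75 genes together the median log2 ratio was -0.42, -0.44 and 0.097 in the 3 comparisons.

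Among 17 tested genes of efflux and cholesterol handling, 3 were lower (Npc1, Abca3 and Stard3) and 0 higher past 2-fold in G1, and 3 lower (Nceh1, Abca7 and Abcd2) and 1 higher (Apoc2) in G2, with medians of -0.52 and -0.60. Npc1, which releases cholesterol from lysosomes, stood at 113.4, 50.2 and 63.1 RPM in the 3 libraries. The lipid transporter Abca3 had 135.2, 60.4 and 77.1, and the cholesterol ester hydrolase gene Nceh1 68.5, 41.4 and 30.9. Npc1 and Abca3 were past 2-fold in G1 and Nceh1 in G2. All 3 were highest in BMM-ABs. Abcd2, a peroxisomal transporter chosen after its values were seen, counted 27, 17 and 0 reads. Apoc2 was sparse, with 6, 9 and 19 reads.

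All 15 nuclear receptors and their targets had a G1 ratio below equality, but 0 passed 2-fold, and the median was -0.39. In G2 their median was -0.20 and 1 was past 2-fold, Ppard. This gene of PPARδ stood at 104.1, 58.2 and 27.8 RPM. Its log2 ratio was -1.91 (-2.13 to -1.69) in G2 and -1.07 (-1.31 to -0.83) in G3, where it was the 1 gene of its list past 2-fold.

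Of 15 genes for uptake and lipolysis of lipoproteins, 3 were lower past 2-fold in G1, among them Slc27a4 and Lrp1, and 2 in G2, among them Slc27a4, and 0 were higher. The fatty acid transporter Slc27a4 had 31.1, 15.3 and 13.5 RPM. The scavenger receptor gene Cd36 went another way, with 17.1, 21.8 and 8.95 RPM, and was past 2-fold only in G3, at -1.28 (-1.71 to -0.87). Like Plin2, Cd36 had its highest level in pOC-ABs and its lowest in mOC-ABs.

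Of 14 genes of lipid droplets, 0 passed 2-fold in G1 and 2 were lower in G2, Fitm2 and Dgat2. Fitm2, which helps to form droplets, had 13.2, 9.20 and 5.45 RPM and a log2 ratio of -1.27 (-1.82 to -0.76) in G2. Of 14 genes for synthesis and desaturation of fatty acids, 3 were lower (Scd3, Fads2 and Fads3) and 1 higher in G1, and 2 lower (Acss2 and Fads3) and 1 higher in G2. Me1, the malic enzyme that supplies NADPH, was the higher one in both, with 21.5, 58.9 and 101.5 RPM and log2 ratios of 1.45 (1.20 to 1.70) and 2.24 (2.01 to 2.47). Acss2, which makes acetyl-CoA from acetate, had 67.1, 74.9 and 28.9 RPM and a log2 ratio of -1.21 (-1.44 to -0.99) in G2. Scd3, a further desaturase, counted 63, 23 and 31 reads with a log2 ratio of -1.15 (-1.91 to -0.44) in G1. Fads3 held only 18, 3 and 7 reads, and its interval in G2 includes equality. The interval of Fads2 in G1 spans the 2-fold limit.

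**Figure D5:**
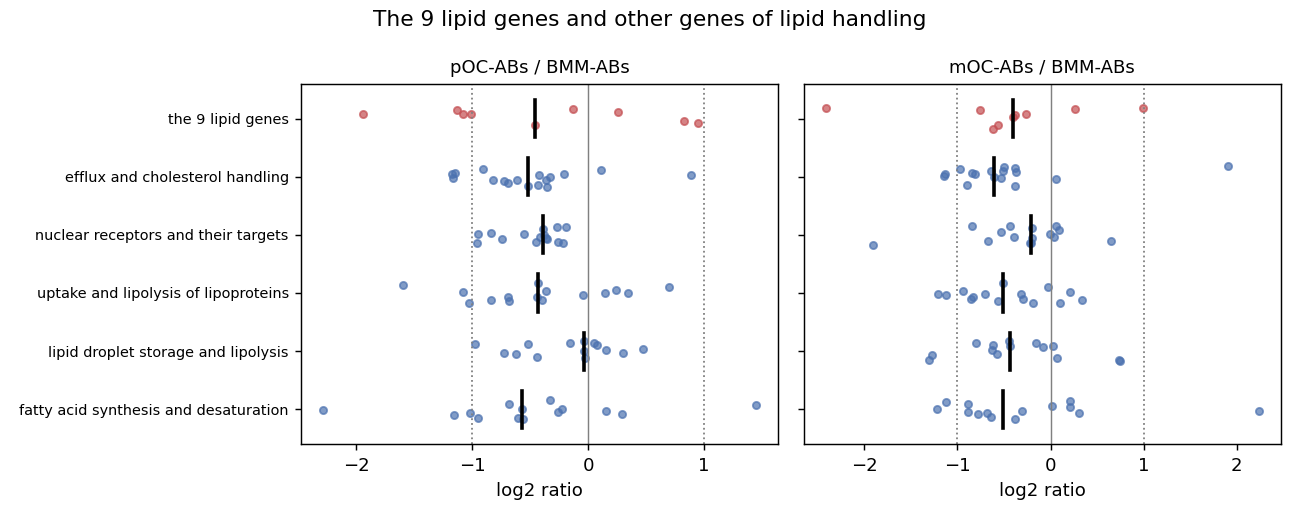
Log2 ratios in G1 (left) and G2 (right) of the 9 lipid genes (red) and of the tested genes of the 5 lists (blue), 1 point a gene, with black bars at the medians, a solid line at equality and dotted lines at 2-fold. Abcd2, with 0 reads in mOC-ABs, is not drawn in G2. The points lie mostly left of equality in both panels, and Me1 is the point furthest right in each.

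The gene nearest in pattern was sought among 69 list genes with at least 100 reads, by the distance between log2 ratios of G1 and G2 over the 3 libraries. Scd1 was nearest to Scd2 (distance 0.129) and to Abcg1 (0.136), and Stard3, a cholesterol-binding protein of endosomes, was nearest to Lpl (0.055). Scd1 stood at 269.2, 139.4 and 206.0 RPM and Stard3 at 82.4, 37.2 and 57.9. Because the split of reads between Scd1 and Scd2 is uncertain where their coding sequences match, their likeness is not independent of shared reads, whose part was not tested. With 3 libraries, a likeness of this kind describes no more than the order and size of 2 ratios.

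Reads of other RNA classes added little. No circRNA row named any of the lipid genes as its host. With 3413, 2380 and 4014 circRNA junction reads in all, from poly-A selected libraries, this absence says little. The lncRNA table held 4 transcripts inside the spans of the lipid genes, a pair each in Abca1 and Nr1h3. Their reads summed to 31, 11 and 7 in Abca1 and to 10, 11 and 6 in Nr1h3. The libraries mark no strand, so that reads of these RNAs and of the host genes cannot be told apart. Among annotated exons, Scd2 contains Mir5114 (61 bases) and Nr1h3 shares 34 bases with Gm13783, which held 1, 1 and 1 reads and 0, 0 and 0 reads.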

How the data were processed

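RNA of the 3 kinds of ABs was sequenced from poly-A selected libraries that keep no strand. The authors deposited read counts and FPKM for each transcript of the mRNA and lncRNA tables, and junction read counts and an SRPBM signal for circRNAs, all from GRCm38. The submitters' processing notes name FastQC, HISAT2 and StringTie, and the role and version of each are not given in the sources used here. The columns marked 0 h, 24 h and 72 h were read as the BMM-AB, pOC-AB and mOC-AB libraries. FPKM as deposited is a count over the length in kilobases and the mRNA total of the library; deposited lengths equalled those of GENCODE M21 within 1% for 96.2% of the 12702 genes compared, by their main transcript.

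Of 56651 listed transcripts, 56422 were matched to GENCODE M21. Their counts were summed per gene, divided by the library's mRNA total, and compared as ratios in G1, G2 and G3 with exact Clopper-Pearson 95% intervals (scipy 1.17.1). Genes needed 20 reads over the 3 libraries, and 2-fold was the limit. With 1 library per condition no test was made and no p-value is given. PCR reads without molecular identifiers are not independent molecules, so intervals cover counting error only, and 3 reads, the limit that a count of 0 allows, equal 0.330, 0.406 and 0.389 RPM (reads per 1000000 reads of the mRNA table). The procedure was tested on simulated data. These were independent Poisson counts, which hold counting error alone, so the test cannot speak to PCR copies or to spread between replicates. Alternatives were other scalings (TMM from edgeR 4.0.16 among them), FPKM, main or coding transcripts alone, other limits, and, chosen after seeing the data, protein-coding totals and subtraction of length and GC medians.

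The genes, the 5 lists and the markers were chosen with earlier results of these data known. Named from each list were up to 3 genes past 2-fold with the largest ratios among those with at least 100 reads, from each lipid gene every transcript with at least 20% of its reads in any library, and for the 3 lipid genes with the widest range the nearest list gene. 1 gene that this rule names is not reported here. Abca7, Abcd2, Apoc2, Dgat2, Fads2, Fads3, Lrp1, Gm13783, Mir5114, Itgb3 and the smaller transcripts of Abca1, Abcg1, Fabp5, Lpl and Plin2 were named after their values were seen. The same holds for the markers Cd68, Lyz2, Mertk, Mrc1 and Tnfrsf11a. The SRPBM values and the lncRNA FPKM were not used.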

Additional observations from a re-analysis of the deposited data

Results flagged for a closer look

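The lncRNA table enters none of the main ratios above, only alternatives such as the scaling to both tables. It held more than 3 reads, the limit that a count of 0 allows, on transcripts inside 2 of the lipid genes. Within Abca1, NONMMUT047279.2 (chromosome 4, 53133624 to 53137088) counted 15 BMM-AB reads, beside 2 pOC-AB and 1 mOC-AB reads. NONMMUT047281.2 (53157306 to 53159892), at the 5′ end of the same gene, counted 16, 9 and 6 reads in the same order. Within Nr1h3, NONMMUT038453.2 (chromosome 2, 91198326 to 91201027) had 5, 7 and 4 reads, and ENSMUST00000131634 (91195906 to 91202778) had 5, 4 and 2. Whether these are reads of separate RNAs or of the host genes was not tested.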

How the results depend on the processing

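With 1 library per condition no replicate could be left out, and no paired analysis was possible because each group has 1 sample. Each of the 27 ratios was recomputed under 12 alternatives. No ratio past 2-fold changed sign (that of Nr1h3 in G1, not past it, ranged from -0.33 to 0.11), and of the 324 values 284 stayed within the main counting interval and 40 left it. Some of these alternatives could not move a ratio. Scd2 has 1 listed transcript, so FPKM and coding or main transcripts alone gave its main value. Adding lncRNA reads changed nothing for genes without any. For genes with 1 coding transcript the coding and main settings are the same. The count of lipid genes past 2-fold in G1 was 4, all lower. It was 2, both lower, with length and GC medians subtracted, 3 with upper-quartile scaling (without Abcg1), 4 with protein-coding scaling (Fabp5 higher in place of Abcg1 lower), 5 on summed FPKM (2 of them higher) and 6 at 1.5-fold (2 of them higher). In G2 it went from 1 to 2 with median-of-ratios, TMM, upper-quartile or protein-coding scaling, under each of which Apoe passed the limit, and to 4 at a limit of 1.5-fold. In G3 it went from 2 to 6 at 1.5-fold, to 1 with at least 100 reads and to 0 where the whole interval had to pass. Among list genes the count in G1 went from 10 to 18 when scaled to the mRNA and lncRNA tables together (17 of them lower), to 5 by the interval and to 30 at 1.5-fold. In G2 it went from 12 to 4 by the interval and 35 at 1.5-fold, and in G3 from 8 to 2 by the interval, 18 at 1.5-fold and 4 with at least 100 reads, all of them lower, while scaling to both tables kept the 8 in number but turned 6 lower and 2 higher into 4 and 4. Over all genes, the counts of 1435, 1722 and 1367 in G1, G2 and G3 became 440, 749 and 448 by the interval, 3820, 3861 and 3124 at 1.5-fold, 3145, 3493 and 3120 without a minimum of reads, and 782, 1000 and 658 with at least 100 reads, since fewer or more genes can then pass, and 872 in G1 with length and GC medians subtracted, among 10999 protein-coding genes of which 1028 passed without the subtraction. Scaling to both tables together moved the median log2 ratio of all genes to -0.22 in G1 and -0.15 in G2, from -0.021 and -0.054. The depth limits Fabp4, Nr1h3 and Apoe most, whose log2 intervals in G1 are the widest of the 9.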
